A study of Danio rerio with 15 samples.

Results

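Zebrafish larvae whose parents had eaten the more arsenic-rich of 2 contaminated diets (High) were set against larvae whose parents had eaten the less contaminated diet (Low). The members are the 5 High and the 5 Low libraries, 10 of the 15 in the series, compared over all genes with enough reads to test. All libraries were made from whole wild-type (WT) larvae at 5 days post fertilization. For all groups the sources used here also give rearing to 30 days post fertilization. They give n = 20 for the larvae, without saying whether this is per library. The parents ate blackworms (Lumbriculus variegatus) for 60 days, at a ration of 3.5% of their body weight. These worms had been kept for 14 days in water with sodium arsenite at 5.0 mg/L for High, 2.5 mg/L for Low and 0 mg/L for the Control group of 5 further libraries. Worm arsenic, in µg/g dry weight, was 72.47 ± 4.62 for High. For Low the protocol gives 33.42 ± 1.45, the sample labels 32.4 and the design text 32.42, and for Control it was below 0.05. The kind of error is not stated. The larvae themselves were raised in arsenic-free medium in all groups, so the groups differ by the diet of their parents, and arsenic in the larvae is not given in the sources used here. Nor do the labels say whether the libraries of a group came from separate clutches or parents, so the p-values measure the spread between these libraries.

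Inorganic arsenic binds thiol groups of proteins, is methylated by the enzyme As3mt, and is known to induce antioxidant genes under the transcription factor Nrf2, metal-binding proteins and heat shock proteins in directly exposed cells. A larva of this age is largely built. It hunts by sight with a retina in which cones work before rods, its heart beats, it has pigment cells, and its liver, pancreas and gut are being finished as the yolk is used up. The chromophore of the visual pigments is renewed in the pigment epithelium behind the retina, and related enzymes split carotenoids and make retinoic acid, a signal that acts through retinoic acid receptors and their RXR partners.

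The libraries held, in M (mega counts), 21.2 to 36.1 in High, 22.6 to 27.2 in Low and 23.8 to 59.9 in Control. Levels are given as CPM, counts relative to the scaled total of the library, so they compare a gene between libraries and not one gene with another. Markers of every cell type checked had counts, except 1 of the matched MPEG1 identifiers, which was at 0 in every library. The digestive organs set the libraries apart most. The 12 markers of exocrine pancreas summed to 92.6, 2890, 16.1, 7610 and 8620 CPM in High 1 to 5 and to 28.1, 53.1, 5.15, 4.80 and 5180 CPM in Low 1 to 5. For the 9 liver markers the sums were 3170, 4540, 20.1, 5770 and 5500 CPM in High 1 to 5, and 334, 24.8, 17.6, 23.3 and 3610 CPM in Low 1 to 5. Thus 4 High libraries were rich in liver transcripts and 1 was poor, while 4 Low libraries were lower and 1 was rich. High 3 and Low 5 stood apart from their groups, and the groups overlapped. In a principal component analysis of the 10 libraries, the first component held 58.7% of the variance and placed Low 5 at -77.9 among the High libraries, whose other scores ran from -105.8 to -24.4, and High 3 at 67.3 among the Low libraries, at 41.2 to 87.8. Because whole larvae were measured, fewer cells of a type and less RNA per cell cannot be told apart here.

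**Figure D1:**
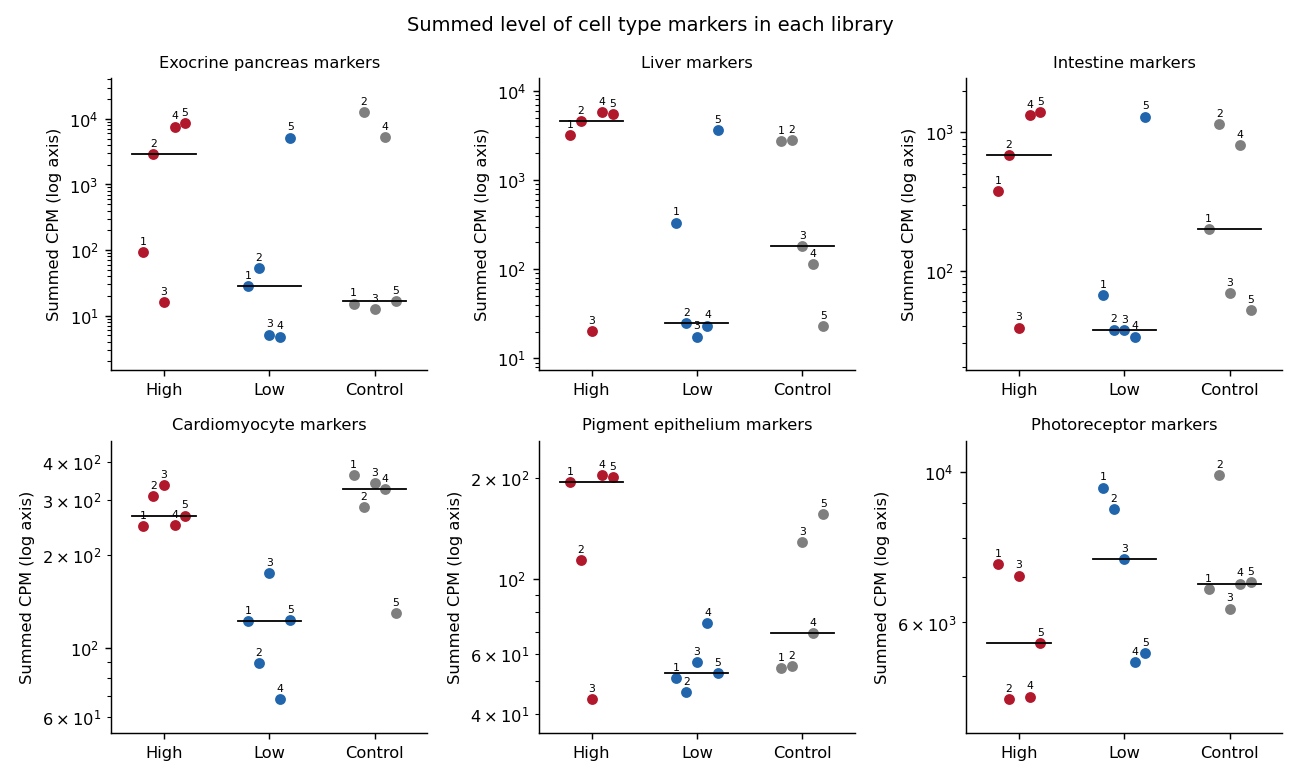
Summed CPM of the markers of 6 cell types (log axes) in the High, Low and Control libraries; each point is a library with its replicate number, and the horizontal line is the median of the group. Pancreas, liver and intestine markers are high in High 2, 4 and 5 and in Low 5 and low in High 3 and Low 2 to 4, while the cardiomyocyte sums of High, 248 to 336 CPM, all lie above those of Low, 68.4 to 175 CPM.

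Of 22012 genes tested, 377 (1.71%) passed an adjusted p of 0.05 between High and Low. Of these, 148 (0.672%) were higher in High and 229 (1.04%) were lower. All adjusted p-values come from the quasi-likelihood test of edgeR and were adjusted over the 22012 genes by the Benjamini-Hochberg method. Of the 377, 136 changed at least 2-fold, 43 of them higher and 93 lower in High. The High and Low libraries did not overlap at all for 301 of the 377, against 944 (4.29%) of all genes tested. The 377 were called by a difference between these same libraries, so a larger share among them is no separate support. The median log2 fold change over all genes was -0.02, and 90% of genes lay between the 5th percentile of -0.64 and the 95th percentile of 0.87. Over all 22012 genes, 4814 had an unadjusted p below 0.05. DESeq2 called 1666 of the 21549 genes it tested (7.73%) and limma voom called 4656. The list counts given below by these 3 measures are to be read beside these. The lists were chosen with earlier results of these data known, so their shares of calls are no separate support. The number of calls by edgeR's test rested on single libraries. Without Low 5 it was 3778, without Low 3 it was 39, without High 2 it was 56 and without Control 4, which is in the fit for its share of the spread, it was 198. Without High 1, 4 or 5 it was 129, 113 and 200, and without Low 1, 2 or 4 it was 72, 231 and 63, while every other library left out kept it between 268 and 537. With the level of digestive organ genes as a term in the fit, 66 genes (0.3%) passed, 30 higher and 36 lower. Without the 4 High and Low libraries richest in pancreas transcripts (High 2, 4 and 5 and Low 5) 70 of 22609 genes (0.31%) passed, 60 higher and 10 lower. That fit set only High 1 and 3 against Low 1 to 4. It did not level the digestive lists, whose medians in it were 1.24 for exocrine pancreas, 2.49 for liver and 2.83 for intestine. High 1, with 3170 CPM of liver markers, stayed in. The fit also kept all Control libraries, with Control 2 and 4 at 12700 and 5210 CPM of pancreas markers. Whether a call was lost in it through fewer libraries or through the kind of library removed was not tested. All 377 genes kept their direction with the digestive term and without the 4 libraries. They had been chosen by their difference in these same libraries. For the 301 without overlap, leaving libraries out could hardly turn the direction, so this is no separate support. The genes called in all 15 fits that each left out 1 library numbered 32, 16 higher and 16 lower, with 4 genes of the cone list among the higher ones.

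**Figure D2:**
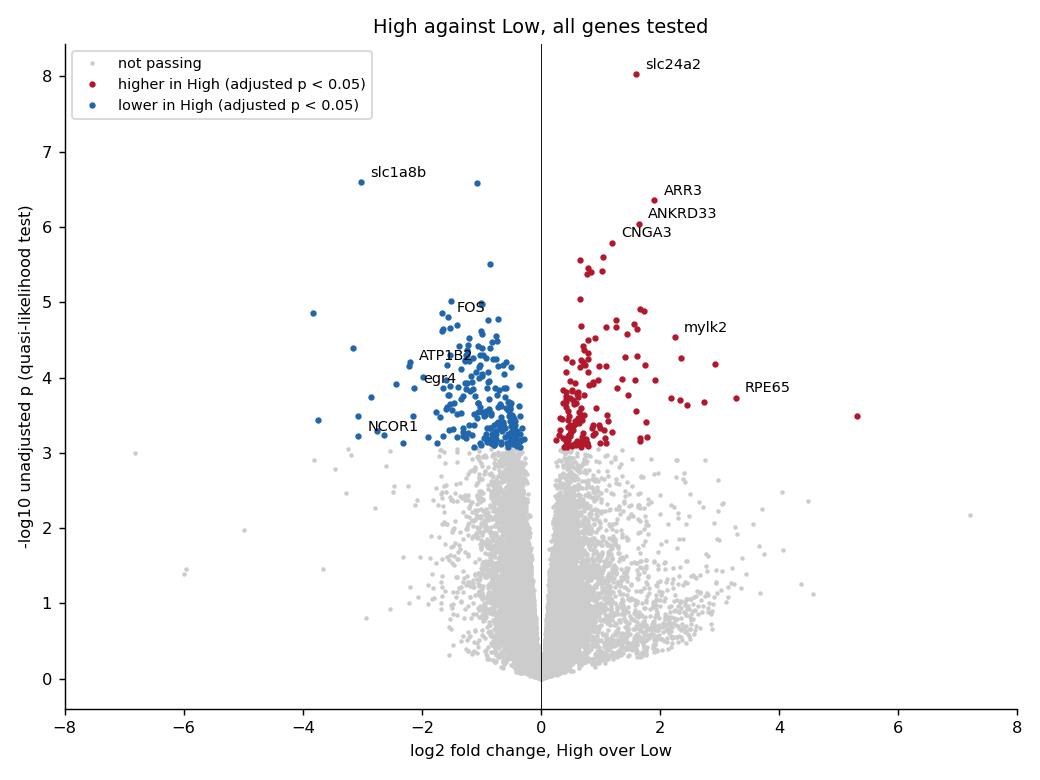
Each point is 1 of 22012 genes, with its log2 fold change (High over Low) on the horizontal axis and the -log10 of its unadjusted p on the vertical axis; coloured points have an adjusted p below 0.05. slc24a2, at a log2 fold change of 1.60, stands highest, followed by slc1a8b at -3.03, and 148 coloured points lie on the side of higher expression in High and 229 on the other.

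Genes of cone phototransduction changed in opposite directions. Of 36 tested, 4 rose and 2 fell in High relative to Low (16.7% passing, against 1.71% of all genes), and the list's median was -0.14, against -0.02 for all genes. The members that rose were slc24a2, the ARR3 entry ENSDARG00000098475 and both tested copies of CNGA3. The members that fell were opn1mw2, a green-sensitive cone opsin, and GNAT2, the alpha subunit of the cone transducin that couples the opsin to the cascade.

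slc24a2 encodes the sodium/calcium-potassium exchanger that extrudes calcium from cones. It stood at 70.1, 57.6, 63.5, 53.3 and 71.5 CPM in High 1 to 5 and at 20.6, 28.2, 18.4, 15.9 and 20.8 CPM in Low 1 to 5. Every High library lay above every Low library, with the lowest High value well clear of the highest Low value. The mean was 63.2 ± 7.85 CPM in High, 20.8 ± 4.57 CPM in Low and 29.7 ± 3.51 CPM in Control (SD, n = 5 each). The log2 fold change of 1.60 ± 0.14 (SE), 3.04-fold, had an adjusted p of 0.000206. Over the 15 fits that each left out 1 library, the adjusted p was at most 0.00181.

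ARR3 (ENSDARG00000098475), cone arrestin, which shuts off the activated opsin, had 122, 68.4, 81.3, 68.4 and 113 CPM in High 1 to 5. In Low 1 to 5 it had 29.5, 21.2, 18.8, 17.3 and 34.1 CPM, so the groups were again separate. High over Low, the log2 fold change was 1.90 ± 0.22, 3.75-fold, with an adjusted p of 0.00241. The Control mean of 37.0 CPM lay nearer to Low. CNGA3, the alpha subunit of the cyclic nucleotide-gated channel of cones, is present as 2 zebrafish copies under the same symbol. The copy ENSDARG00000070726 had 23.0, 18.7, 19.2, 24.1 and 28.1 CPM in High 1 to 5 and 10.1, 10.5, 11.8, 6.78 and 10.2 CPM in Low 1 to 5. The other copy, ENSDARG00000012297, had 8.53, 6.75, 10.1, 6.78 and 9.99 CPM in High 1 to 5 and 2.34, 2.69, 1.94, 1.54 and 4.77 CPM in Low 1 to 5. Neither copy overlapped between the groups. Their log2 fold changes were 1.20 ± 0.16 (adjusted p = 0.00592) and 1.67 ± 0.26 (adjusted p = 0.0147). ARR3 and both copies of CNGA3 passed in all 15 fits without 1 library and with the digestive term. Without the 4 pancreas-rich libraries, slc24a2, ARR3 and the second CNGA3 copy had an adjusted p of 0.0079 each, while the first had 0.0516.

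opn1mw2 pointed the other way, with 181, 131, 196, 137 and 173 CPM in High 1 to 5 against 443, 316, 347, 261 and 246 CPM in Low 1 to 5. All 5 High libraries lay below all 5 Low libraries. On the log2 scale the change was -0.98 ± 0.17, with an adjusted p of 0.0181. GNAT2 (ENSDARG00000042529), which is described because it is the other member that fell and so was chosen after its values were seen, averaged 205 ± 30.1 CPM in High, 379 ± 94.8 CPM in Low and 362 ± 55.9 CPM in Control. High over Low, this was a log2 fold change of -0.88 ± 0.17 (adjusted p = 0.0200). Neither fall was called with the digestive term or without the 4 pancreas-rich libraries, where the opsin had an adjusted p of 0.0579 and 0.104. The opsin was kept in 13 of the 15 fits without 1 library (8 of the 10 without a High or Low library), the highest adjusted p being 0.0579 without Low 3. No cone gene passed as lower in those fits without High 2 or without Low 3 either.

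Rod genes gave no call. None of 25 passed edgeR's test, while 5 had an unadjusted p below 0.05, against 4814 of all 22012 genes. DESeq2 called 1 of the 25 and limma voom 4. Of the 25, 23 had a fold change below 0, and the median was -0.31. The red-sensitive cone opsin opn1lw1 ranged from 7.06 to 34.1 CPM in High and from 11 to 37.9 CPM in Low, and its adjusted p was 0.617. None of 63 lens crystallin genes passed edgeR's test or DESeq2, none had an unadjusted p below 0.05 and 1 passed by voom (median -0.32). The summed level of 10 photoreceptor markers ran from 4620 to 7320 CPM in High and from 5240 to 9500 CPM in Low, overlapping.

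ANKRD33, an ankyrin repeat protein known from the mouse as a transcriptional regulator of photoreceptors, rose with the 4 cone genes named above. It had 16.3, 12.8, 13.8, 10.2 and 13.6 CPM in High 1 to 5 and 2.38, 5.11, 5.35, 3.34 and 5.04 CPM in Low 1 to 5. The groups were separate by a wide margin. Its log2 fold change was 1.65 ± 0.21, with an adjusted p of 0.00399, and it passed in all 15 fits without 1 library, with the digestive term (adjusted p = 0.00826) and without the 4 pancreas-rich libraries (adjusted p = 0.0249).

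**Figure D3:**
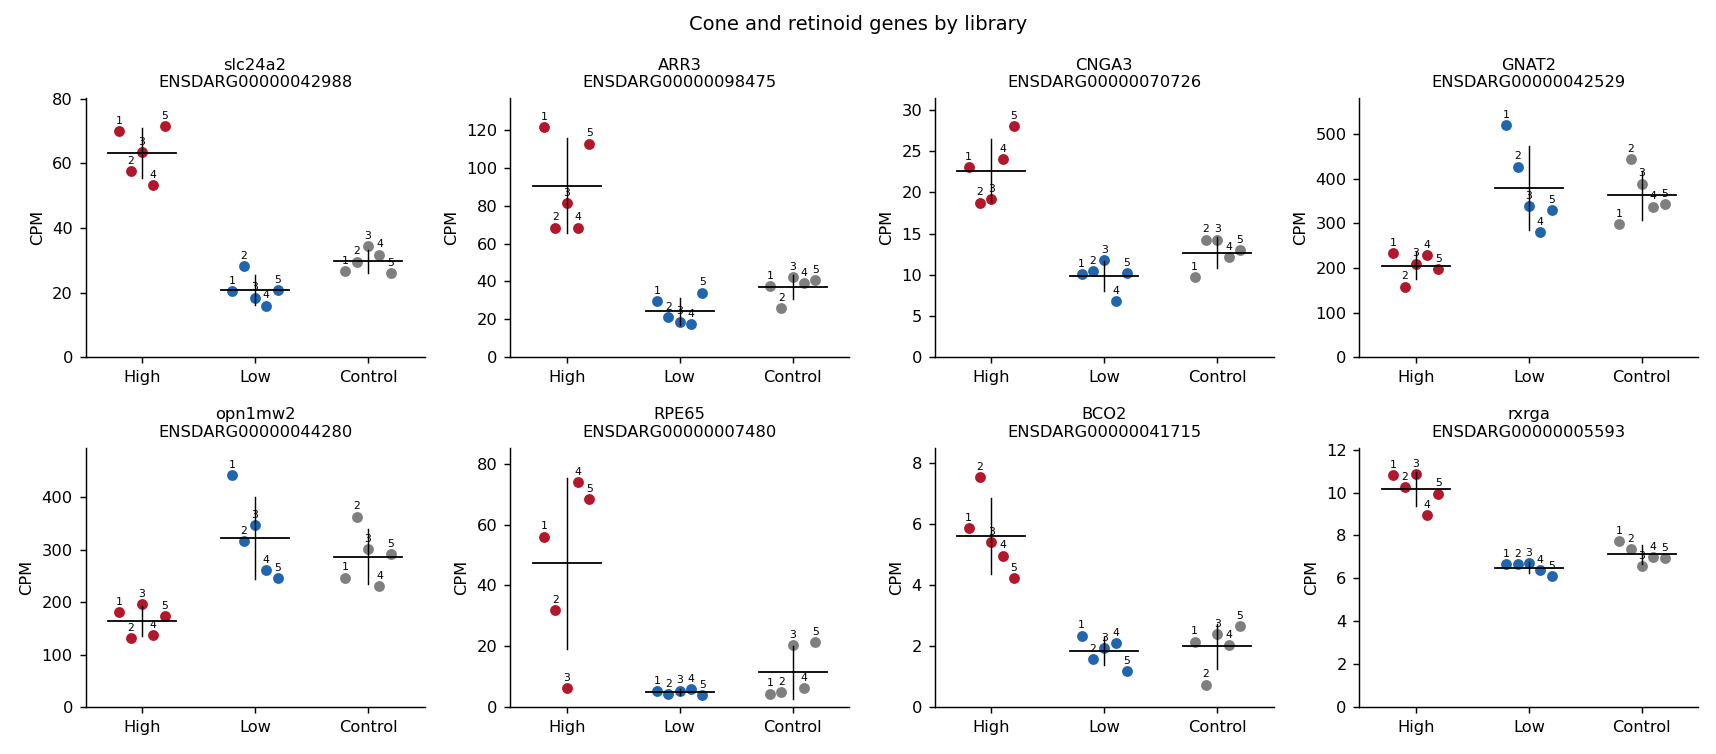
CPM of 8 cone and retinoid genes in each High, Low and Control library; points carry the replicate number, the horizontal line is the mean and the vertical line spans 1 SD either side of it. slc24a2, ARR3, CNGA3, BCO2 and rxrga lie higher in all 5 High libraries than in any Low library, GNAT2 and opn1mw2 lie lower, and RPE65 is high in 4 High libraries and near the Low level, at 6.08 CPM, in High 3.

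Genes of the retinoid visual cycle and the pigment epithelium rose in 3 cases and fell in none out of 25 tested. This was 12% passing, against 1.71% of all genes, with a median of 0.51. RPE65, the isomerase that regenerates the 11-cis chromophore in the pigment epithelium, had the largest rise of all genes named here. It stood at 56.1, 31.9, 6.08, 74.0 and 68.4 CPM in High 1 to 5, against 5.30, 4.13, 5.39, 5.90 and 3.77 CPM in Low 1 to 5. High 3 was barely above the highest Low library and the other 4 High libraries were far above it. In Control 1 to 5 the level was 4.40, 4.78, 20.4, 6.08 and 21.3 CPM, so 2 Control libraries were also raised. Between High and Low the log2 fold change was 3.27 ± 0.64, 9.64-fold, with an adjusted p of 0.0273. The call was kept in 7 of the 15 fits without 1 library, the highest adjusted p being 0.0825 without Low 3. Of the 10 fits that left out a High or Low library, 2 kept it. It was lost with the digestive term (0.0851) and without the 4 pancreas-rich libraries (0.180).

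rbp4l, a member of the family of plasma retinol carriers, had 317, 208, 239, 219 and 260 CPM in High 1 to 5 and 157, 182, 126, 117 and 138 CPM in Low 1 to 5. No High library fell within the Low range. The log2 fold change, High over Low, was 0.79 ± 0.14 (adjusted p = 0.0181). SLC16A3, a lactate and pyruvate transporter, averaged 30.2 ± 2.65 CPM in High and 21.0 ± 3.29 CPM in Low (SD, n = 5 each), a 1.44-fold rise with an adjusted p of 0.0245. None of the 3 passed with the digestive term or without the 4 pancreas-rich libraries, and none of the list passed without Low 3 or without Low 4. The 7 pigment epithelium markers summed to 44.2 CPM in High 3 and to 114 CPM or more in the other High libraries, and to 46.4 to 74.3 CPM in Low. Melanophore markers showed a like order, at 44.1 CPM in High 3, 111 to 177 CPM in the other High libraries and 50.2 to 79.8 CPM in Low. The pigment epithelium sum includes RPE65 itself, and pmela is in both marker sets, so the likeness of these orders is partly built in. The part of these cells in the rise of RPE65 was not tested.

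Among 31 genes of retinoic acid and carotenoid metabolism, 4 rose and 1 fell. This was 16.1% passing, against 1.71% of all genes, and the median was 0.32. BCO2, an oxygenase that cleaves carotenoids, had 5.87, 7.54, 5.42, 4.97 and 4.22 CPM in High 1 to 5 and 2.34, 1.57, 1.94, 2.09 and 1.18 CPM in Low 1 to 5. The groups were separate, and the Control mean of 1.99 CPM lay at the Low level. On the log2 scale the change was 1.61 ± 0.29 (adjusted p = 0.0181), and it passed with the digestive term as well (adjusted p = 0.0184). It was lost without the 4 pancreas-rich libraries (adjusted p = 0.0937). It was kept in 13 of the 15 fits without 1 library (8 of the 10 without a High or Low library), with 0.0579 without Low 3. bco2l, a paralogue, averaged 18.1 ± 1.83 CPM in High and 11.4 ± 3.19 CPM in Low, with an adjusted p of 0.0489. This call was lost in 13 of the 15 fits without 1 library, reaching 0.131 without Low 4. Of the 10 fits that left out a High or Low library, 1 kept it.

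rxrga, a retinoid X receptor, showed a small change and little spread between libraries of a group. It had 10.8, 10.3, 10.9, 8.96 and 9.95 CPM in High 1 to 5, against 6.66, 6.65, 6.70, 6.38 and 6.09 CPM in Low 1 to 5. Every High library was above every Low library. The log2 fold change was 0.65 ± 0.09, 1.57-fold, with an adjusted p of 0.00717. It was called in all 15 fits without 1 library, with the digestive term and without the 4 pancreas-rich libraries.

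The cellular retinol-binding proteins split. rbp5 averaged 43.3 ± 5.54 CPM in High, 26.4 ± 2.41 CPM in Low and 34.3 ± 10.4 CPM in Control, with a log2 fold change of 0.72 ± 0.17 and an adjusted p of 0.0467. rbp7a fell, with 5.01, 5.79, 7.92, 6.36 and 4.26 CPM in High 1 to 5 against 18.4, 8.12, 20.4, 14.1 and 13.3 CPM in Low 1 to 5. Its highest High value and its lowest Low value almost touched. This amounted to a log2 fold change of -1.34 ± 0.25 (adjusted p = 0.0188). Neither passed with the digestive term. CYP26A1, which breaks down retinoic acid, did not pass, at 22.6 CPM in High and 32.1 CPM in Low (adjusted p = 0.188).

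Of 50 heart genes tested, 5 rose and none fell (10% passing, against 1.71% of all genes), and the median was 0.44. For 11 of the 50 every High library lay above every Low library, which held for 412 genes (1.87%) of all tested. The 5 were CSRP3, TNNI1, SLC8A1, TNNT2 and HSPB7. CSRP3 encodes a LIM protein of the muscle Z-disc and had 4.64, 6.20, 6.16, 3.58 and 4.46 CPM in High 1 to 5 and 1.56, 0.735, 1.71, 1.1 and 2.36 CPM in Low 1 to 5. The Control mean was 3.97 CPM. For High over Low, the log2 fold change of CSRP3 was 1.75 ± 0.32, with an adjusted p of 0.0181.

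TNNI1 (ENSDARG00000052708), a troponin I, had 19.6, 23.7, 25.0, 13.3 and 14.7 CPM in High 1 to 5 and 5.88, 4.62, 9.99, 5.02 and 6.86 CPM in Low 1 to 5. The groups did not overlap. Its log2 fold change was 1.58 ± 0.30 (adjusted p = 0.0226). SLC8A1, the sodium-calcium exchanger that removes calcium from heart muscle cells, had 8.45, 11.9, 16.3, 10.2 and 12.8 CPM in High 1 to 5 and 5.14, 4.37, 5.83, 3.04 and 4.04 CPM in Low 1 to 5, again without overlap. High over Low, the log2 fold change was 1.41 ± 0.25 (adjusted p = 0.0181). TNNT2, cardiac troponin T, averaged 45.4 ± 11.5 CPM in High, 19.9 ± 6.94 CPM in Low and 43.2 ± 13.2 CPM in Control, with a log2 fold change of 1.19 ± 0.27 (adjusted p = 0.0425). HSPB7, a small heat shock protein of heart muscle, averaged 16.3 ± 2.80 CPM in High, 8.32 ± 1.58 CPM in Low and 14.6 ± 3.08 CPM in Control (adjusted p = 0.0181).

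For each of these 5 genes the Control mean lay closer to High than to Low, and Control 5 stood at 2.00, 7.45, 4.51, 24.8 and 9.55 CPM for CSRP3, TNNI1, SLC8A1, TNNT2 and HSPB7. nppa, the atrial natriuretic peptide, showed the widest gap of the group, at 7.73, 25.2, 23.6, 10.6 and 14.7 CPM in High 1 to 5 and 3.33, 0.735, 4.12, 0.0367 and 4.23 CPM in Low 1 to 5, without overlap. With a log2 fold change of 2.72 ± 0.82 it did not pass edgeR's test (adjusted p = 0.0896), while it passed by DESeq2 (0.0201) and voom (0.0339). The heart calls rested on few libraries. None of the list passed without High 2, without Low 4 or with the digestive term, 1 passed without Low 1 and 2 passed without Low 3. Without Low 5, 17 rose and 1 fell, where 1958 of all genes rose and 1820 fell. Without the 4 pancreas-rich libraries 2 rose, HSPB7 (adjusted p = 0.0411) among them, where 60 of all genes rose. The summed level of 10 cardiomyocyte markers was 248 to 336 CPM in High, 68.4 to 175 CPM in Low and 130 to 363 CPM in Control. These markers include TNNT2, TNNI1 and nppa, so the sum is not separate from the genes above.

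Of 71 skeletal muscle genes 3 rose and none fell (4.23% passing, against 1.71% of all genes), with a median of 0.25. One was TNNI1, which both lists hold. mylk2, the myosin light chain kinase of skeletal muscle, had 1.35, 1.69, 2.59, 1.67 and 1.23 CPM in High 1 to 5 against 0.205, 0.385, 0.555, 0.220 and 0.409 CPM in Low 1 to 5. The level was low in every library, and the groups were separate. On the log2 scale the change was 2.25 ± 0.38, 4.76-fold, with an adjusted p of 0.0161, and it passed in all 15 fits without 1 library. The Control mean of 1.63 CPM was close to that of High. MYOZ2, a calcineurin-binding Z-disc protein, averaged 12.8 ± 2.91 CPM in High and 8.09 ± 1.11 CPM in Low, with an adjusted p of 0.0467 and with overlap. The sum of 7 skeletal muscle markers ran from 3670 to 5280 CPM in High and from 1590 to 2310 CPM in Low 1 to 4, with Low 5 at 9210 CPM. Without Low 5, 25 of the skeletal muscle genes passed as higher, where 1958 of all genes did.

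Immediate early genes, which neurons and other cells switch on within minutes of a stimulus, were lower in High for 3 of 49 tested. None rose, the list median was -0.11, and 6.12% passed, against 1.71% of all genes. FOS (ENSDARG00000031683), a subunit of the AP-1 transcription factor, had 8.76, 6.79, 9.32, 9.80 and 8.03 CPM in High 1 to 5. In Low 1 to 5 it had 23.6, 30.2, 28.9, 34.0 and 9.68 CPM. Low 5 lay inside the High range and the other 4 Low libraries far above it. In Control 1 to 5 the level was 17.9, 21.7, 16.4, 16.0 and 14.9 CPM, between those of High and of Low 1 to 4. Between High and Low the log2 fold change was -1.57 ± 0.25, with an adjusted p of 0.0152.

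egr4, a zinc finger transcription factor of active neurons, showed the same split, with 9.82, 6.86, 9.40, 12.3 and 7.90 CPM in High 1 to 5 and 43.7, 47.1, 47.4, 54.7 and 10.2 CPM in Low 1 to 5. High over Low, this was a log2 fold change of -2.14 ± 0.41 (adjusted p = 0.0243). NPAS4, which is induced by neuronal calcium entry, had 21.8, 16.9, 24.4, 33.4 and 19.7 CPM in High 1 to 5 and 52.7, 75.9, 56.5, 83.5 and 20.7 CPM in Low 1 to 5. In all 3 genes Low 5 alone among the Low libraries was at the level of High. NPAS4 had a log2 fold change of -1.32 ± 0.30 and an adjusted p of 0.0445. FOS was called in all 15 fits without 1 library, egr4 in 8 (up to 0.0757 without High 2) and NPAS4 in 2 (up to 0.121 without Low 4). Of the 10 fits that left out a High or Low library, egr4 was called in 3 and NPAS4 in 1. Without Low 5, 14 of the list fell and 4 rose, where 1820 of all genes fell and 1958 rose. None of the 3 passed with the digestive term, where the adjusted p was 0.0595 for FOS, 0.0928 for egr4 and 0.177 for NPAS4. Without the 4 pancreas-rich libraries FOS (0.0079) and NPAS4 (0.0334) passed and egr4 had 0.0602.

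In the circadian clock, 4 of 40 genes fell and none rose (10% passing, against 1.71% of all genes), with a median of -0.05. BHLHE40, a repressor of the clock that light induces in zebrafish, had 37.9, 28.1, 33.2, 32.4 and 28.2 CPM in High 1 to 5 and 86.9, 69.2, 73.8, 77.5 and 45.4 CPM in Low 1 to 5. No libraries overlapped, although Low 5 was again nearest to High. Its log2 fold change was -1.14 ± 0.21 (adjusted p = 0.0181). Control 2 stood at 82.0 CPM and the other Control libraries at 39.2 to 44.7 CPM.

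PER1 (ENSDARG00000012499), a core negative arm gene of the clock, had 4.41, 3.75, 6.24, 6.08 and 4.09 CPM in High 1 to 5 and 10.2, 10.8, 10.6, 10.3 and 5.91 CPM in Low 1 to 5, overlapping only through Low 5. The log2 fold change, High over Low, was -0.96 ± 0.21 (adjusted p = 0.0344). PER3 averaged 8.03 ± 1.02 CPM in High, 13.9 ± 2.78 CPM in Low and 13.1 ± 3.88 CPM in Control (adjusted p = 0.0468). rorcb, an orphan receptor that drives clock genes, averaged 80.6 ± 8.34 CPM in High and 125 ± 18.9 CPM in Low (adjusted p = 0.0386). The remaining PER1 copy, ENSDARG00000056885, and PER2 did not pass, with adjusted p of 0.488 and 0.166 and means of 123 CPM in High and 103 CPM in Low for PER2. No clock gene passed without High 2, Low 1, Low 3 or Low 4, or without the 4 pancreas-rich libraries, and rorcb alone passed with the digestive term (adjusted p = 0.0452). The hour at which larvae were taken is not given in the sources used here.

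**Figure D4:**
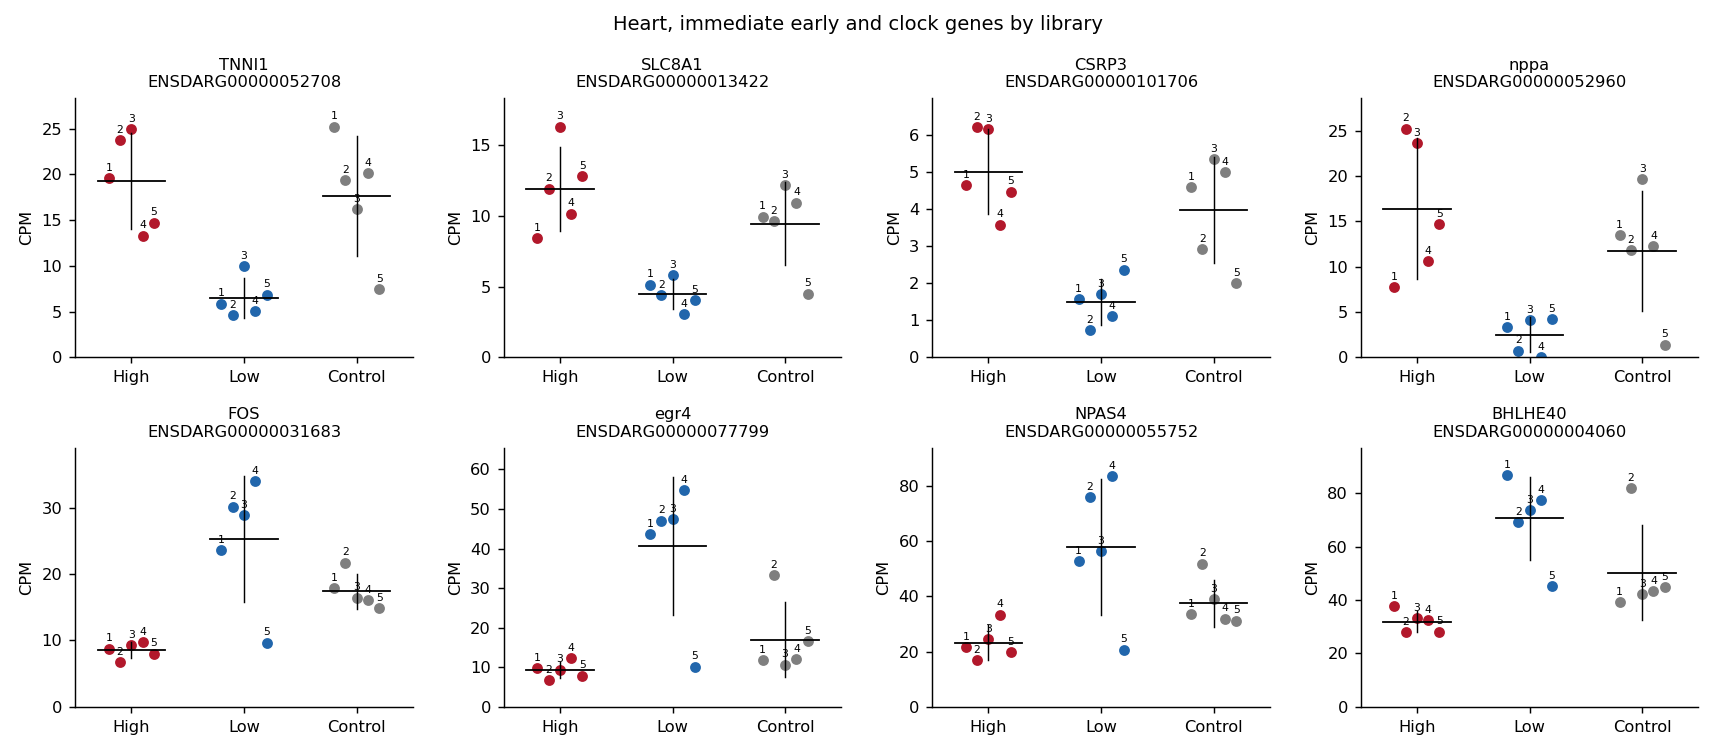
CPM of 4 heart genes (upper row) and of 3 immediate early genes and the clock gene BHLHE40 (lower row) in each High, Low and Control library; points carry the replicate number, the horizontal line is the mean and the vertical line spans 1 SD either side. The heart genes are higher in every High library than in any Low library, with most Control libraries near High, and for FOS, egr4 and NPAS4 Low 5 lies with the High libraries, at 9.68, 10.2 and 20.7 CPM, while Low 1 to 4 lie above them.

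Outside these groups, the largest rises by the naming rule included tgm5l, muc5.2, spink2.9 and pnp4a. tgm5l, a transglutaminase of the family that cross-links proteins, had 13.3, 24.8, 23.3, 7.20 and 6.63 CPM in High 1 to 5 and 1.11, 6.54, 1.43, 1.72 and 2.91 CPM in Low 1 to 5. Its highest Low value, in Low 2, came close to the lowest High value. The log2 fold change was 2.45 ± 0.50, 5.47-fold, with an adjusted p of 0.0300. muc5.2, a gel-forming mucin, averaged 17.4 ± 7.68 CPM in High and 5.47 ± 1.84 CPM in Low (adjusted p = 0.0454). spink2.9, of the Kazal family of protease inhibitors, averaged 3.73 ± 2.00 CPM in High and 1.09 ± 0.46 CPM in Low, while Control was at 3.66 ± 1.51 CPM (adjusted p = 0.0448). Of the 15 fits without 1 library, 10 kept tgm5l, 3 kept muc5.2 and 4 kept spink2.9. In this order, the adjusted p was 0.0534, 0.0678 and 0.154 with the digestive term. Without the 4 pancreas-rich libraries it was 0.0796, 0.113 and 0.126, so none of these genes passed in either fit.

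pnp4a, the purine nucleoside phosphorylase of the reflecting pigment cells called iridophores, had 23.5, 27.6, 25.7, 12.7 and 15.4 CPM in High 1 to 5 against 6.70, 6.33, 6.54, 6.71 and 5.45 CPM in Low 1 to 5. The Low libraries were tightly grouped and all High libraries lay above them. On the log2 scale the change was 1.73 ± 0.27, with an adjusted p of 0.0147, and it passed in all 15 fits without 1 library, with the digestive term (adjusted p = 0.00826) and without the 4 pancreas-rich libraries (adjusted p = 0.0376). SPR, sepiapterin reductase, which makes the pteridines of yellow pigment cells, averaged 4.08 ± 1.26 CPM in High and 1.29 ± 0.71 CPM in Low, with overlap through High 5 and Low 5 (adjusted p = 0.0467). These were the 2 that rose of 35 iridophore and xanthophore genes, none of which fell (5.71% passing, against 1.71% of all genes, median 0.21). None of 22 melanophore genes passed edgeR's test (median 0.29), while 10 had an unadjusted p below 0.05, 4 passed by DESeq2 and 7 by voom.

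The deepest fall among the 12 genes that fell most under the naming rule was in ATP1B2, a beta subunit of the sodium-potassium pump. It had 1.26, 0.930, 0.985, 1.3 and 1.06 CPM in High 1 to 5 and 1.60, 9.17, 4.24, 5.21 and 5.45 CPM in Low 1 to 5. All High libraries lay below Low 1, which itself was far below the other Low libraries. This amounted to a log2 fold change of -2.21 ± 0.41, leaving 0.216 of the Low level, with an adjusted p of 0.0181, and the Control mean was 7.46 CPM. It was the member that fell of 41 genes of ionocytes and ion transport, of which SLC8A1 alone rose. The share passing was 4.88%, against 1.71% of all genes.

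slc1a8b, of the glutamate transporter family, was far lower in High. It had 0.401, 0.241, 0.492, 0.232 and 0.491 CPM in High 1 to 5, against 3.04, 4.02, 2.42, 3.56 and 2.27 CPM in Low 1 to 5 and 1.97 to 6.40 CPM in Control. Even the lowest Low library stood well above the highest High library. High over Low, this was a log2 fold change of -3.03 ± 0.34, or 0.123 of the Low level, with an adjusted p of 0.0019, and it passed in all 15 fits without 1 library, with the digestive term (adjusted p = 0.00826) and without the 4 pancreas-rich libraries (adjusted p = 0.0396). It alone passed of 62 genes of neurotransmitters and monoamines (1.61%, against 1.71% of all genes).

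grk5, a kinase that desensitizes G protein-coupled receptors, averaged 2.46 ± 1.09 CPM in High and 7.05 ± 2.42 CPM in Low (log2 fold change -1.53, adjusted p = 0.0293). CAMK1G, a calcium/calmodulin-dependent kinase, had 70.5, 46.5, 56.9, 28.5 and 43.7 CPM in High 1 to 5 and 168, 146, 120, 111 and 79.2 CPM in Low 1 to 5 (log2 fold change -1.34, adjusted p = 0.0280). KERA, keratocan, a proteoglycan of the cornea, had 132, 115, 103, 115 and 112 CPM in High 1 to 5 and 355, 302, 290, 180 and 182 CPM in Low 1 to 5. For KERA the High libraries were nearly level while Low ranged widely, and its log2 fold change was -1.18 ± 0.22 (adjusted p = 0.0216). mctp2b, a membrane protein with C2 domains, averaged 6.24 ± 0.93 CPM in High, 15.2 ± 4.89 CPM in Low and 8.79 ± 2.80 CPM in Control (adjusted p = 0.0181).

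The other 4 of the 12 were the connexin gjb9b (log2 fold change -1.42), the major histocompatibility class II chain mhc2dbb (-1.34), the sulfotransferase sult5a1 (-1.32) and the transporter abcc6a (-1.15), with adjusted p between 0.0339 and 0.0443. Their High and Low libraries were apart, which the naming rule required. Each was lost in the fit without Low 3, where the adjusted p lay between 0.100 and 0.119. MPEG1 (ENSDARG00000043093), a perforin-like gene of macrophages, had 15.7, 15.2, 22.9, 10.3 and 14.5 CPM in High 1 to 5 and 43.1, 25.7, 41.7, 33.4 and 24.1 CPM in Low 1 to 5, with a log2 fold change of -1.09 ± 0.21 (adjusted p = 0.0200). In the same list of 38 neutrophil and macrophage genes (5.26% passing, against 1.71% of all genes), the collagenase mmp13a rose. It stood at 3.33 ± 2.46 CPM in High and 0.731 ± 0.31 CPM in Low (log2 fold change 2.18 ± 0.44, adjusted p = 0.0277). The 7 markers of neutrophils and macrophages summed to 81.3 to 128 CPM in High and 101 to 140 CPM in Low, overlapping.

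Of 32 genes of arsenic methylation and transport 2 rose and none fell (6.25% passing, against 1.71% of all genes), with a median of 0.34. They were pnp4a, described above, which the iridophore list also holds, and ABCC4. The latter, an efflux transporter, stood at 15.4 ± 2.03 CPM in High and 10.4 ± 2.10 CPM in Low (adjusted p = 0.0469). ABCC4 was kept in 3 of the 15 fits without 1 library (2 of the 10 without a High or Low library) and lost with the digestive term (adjusted p = 0.154). AS3MT, the arsenic methyltransferase, averaged 14.9 CPM in High and 13.7 CPM in Low (log2 fold change 0.12 ± 0.13, adjusted p = 0.591). gsto1, an arsenic-reducing glutathione transferase, averaged 15.1 CPM in High and 13.1 CPM in Low (adjusted p = 0.705).

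Of 48 genes of Nrf2 and the antioxidant response, nfe2l2b alone passed (2.08%, against 1.71% of all genes), and it rose. It encodes a zebrafish copy of Nrf2 and had 4.32, 5.41, 4.84, 4.78 and 5.57 CPM in High 1 to 5, against 1.77, 1.29, 2.10, 2.27 and 2.95 CPM in Low 1 to 5. The groups were separate and each was narrow. Its log2 fold change was 1.26 ± 0.20, with an adjusted p of 0.0152, and it passed in all 15 fits without 1 library. With the digestive term it passed too (adjusted p = 0.0423), while without the 4 pancreas-rich libraries the adjusted p was 0.0602. Of the whole list, 8 genes had an unadjusted p below 0.05, and 3 rose by DESeq2 and 10 by voom. The Nrf2 targets HMOX1, NQO1 and GCLC did not pass edgeR's test. HMOX1, heme oxygenase, averaged 7.66 CPM in High and 7.71 CPM in Low (log2 fold change -0.01 ± 0.24, adjusted p = 0.984), a difference whose sign turned under RLE scaling. NQO1 averaged 45.8 CPM in High and 44.7 CPM in Low (adjusted p = 0.886). GCLC, the limiting enzyme of glutathione synthesis, averaged 54.3 CPM in High and 48.8 CPM in Low (log2 fold change 0.16 ± 0.10, adjusted p = 0.358).

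Among 52 heat shock and chaperone genes, HSPB7 and CHORDC1 rose and none fell (3.85% passing, against 1.71% of all genes, median 0.18). CHORDC1, a partner of Hsp90, averaged 41.0 ± 3.47 CPM in High and 31.5 ± 3.39 CPM in Low, a 1.3-fold rise (adjusted p = 0.0489). The stress-inducible hsp70l did not pass, at 23.7 CPM in High and 26.6 CPM in Low (adjusted p = 0.760). None of 39 genes of metal handling passed edgeR's test (10 at an unadjusted p below 0.05, 4 by DESeq2, 13 by voom). Nor did any of 46 genes of the endoplasmic reticulum and integrated stress responses (10 at an unadjusted p below 0.05, 4 by DESeq2, 13 by voom). Over all genes the same counts were 4814 of 22012, 1666 of 21549 and 4656.

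Among 47 genes of cell cycle arrest and apoptosis 1 rose and 2 fell (6.38% passing, against 1.71% of all genes, median -0.03). cdkn1a, the cell cycle inhibitor p21, had 7.16, 7.89, 6.89, 11.8 and 11.3 CPM in High 1 to 5 and 3.16, 2.97, 2.93, 2.75 and 6.68 CPM in Low 1 to 5. Only Low 5 came near to High. High over Low, the log2 fold change was 1.28 ± 0.25 (adjusted p = 0.0243), and it was kept without the 4 pancreas-rich libraries (adjusted p = 0.0269) but not with the digestive term (0.0534). bbc3, the death-promoting Puma, fell to 4.49 ± 1.44 CPM in High, against 9.81 ± 2.00 CPM in Low (adjusted p = 0.0344). SESN1, sestrin, averaged 226 ± 31.4 CPM in High and 416 ± 104 CPM in Low (log2 fold change -0.88, adjusted p = 0.0280).

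Of 31 genes of the glucocorticoid axis PER1 alone passed, and of 29 of the thyroid axis NCOR1 alone, both as lower in High. These shares, 3.23% and 3.45%, stood against 1.71% of all genes. NR3C1, the glucocorticoid receptor, averaged 10.7 CPM in High and 16.7 CPM in Low (log2 fold change -0.64 ± 0.24, adjusted p = 0.142). Its target FKBP5 ranged from 84.5 to 416 CPM in High and from 4.15 to 203 CPM in Low, a spread so wide that a log2 fold change of 1.46 ± 0.90 did not pass edgeR's test (adjusted p = 0.354), though it passed by voom (0.0163). Of 46 genes of insulin and IGF signalling, IGFBP3 alone passed (2.17%, against 1.71% of all genes). This binding protein of IGF averaged 57.4 ± 10.6 CPM in High, 38.0 ± 3.26 CPM in Low and 57.0 ± 6.44 CPM in Control (adjusted p = 0.0293), with the Control mean at the level of High. IGF1 did not pass (adjusted p = 0.579). CYP1A1, the main target of the aryl hydrocarbon receptor, had 21.9 to 55.4 CPM in High and 9.80 to 55.2 CPM in Low (log2 fold change 0.78 ± 0.47, adjusted p = 0.336). Low 5 held the 55.2 CPM, and Low 1 to 4 lay below every High library. CYP1A1 passed without Low 5 (adjusted p = 0.00693) and by voom (log2 fold change 1.37, adjusted p = 0.00886).

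Of 42 genes of DNA methylation and chromatin 2 fell and none rose (4.76% passing, against 1.71% of all genes). kdm4aa, a histone demethylase, averaged 29.0 ± 5.36 CPM in High, 44.2 ± 4.46 CPM in Low and 46.7 ± 8.11 CPM in Control (log2 fold change -0.61, adjusted p = 0.0409). NCOR1, a nuclear receptor corepressor that is also in the thyroid list, had 3.15, 2.03, 1.48, 2.14 and 2.79 CPM in High 1 to 5 and 2.30, 49.0, 19.7, 22.7 and 3.82 CPM in Low 1 to 5. Low 1 and Low 5 lay at the High level and the other 3 Low libraries far above it. The adjusted p was 0.0448. Without High 2 it was 0.116. DNMT1, the maintenance methyltransferase, averaged 83.0 CPM in High and 67.4 CPM in Low (adjusted p = 0.538).

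Cholesterol and matrix genes added 3 calls. ldlrb, an LDL receptor, had 36.9, 40.6, 46.4, 57.2 and 39.2 CPM in High 1 to 5 and 20.7, 29.1, 22.0, 19.4 and 26.9 CPM in Low 1 to 5. Its log2 fold change was 0.90 ± 0.15 (adjusted p = 0.0161). It alone passed of 35 cholesterol genes (2.86%, against 1.71% of all genes, list median 0.58). It was kept with the digestive term (adjusted p = 0.0423) and lost without the 4 pancreas-rich libraries (adjusted p = 0.0786) and without Low 3 (adjusted p = 0.0543). Of 102 collagen and matrix genes 2 rose, mmp13a and mfap4.6, and none fell (median 0.26). This share of 1.96% was near the 1.71% of all genes. mfap4.6, of a family of microfibril-associated proteins, averaged 2.35 ± 1.39 CPM in High, 0.456 ± 0.13 CPM in Low and 2.14 ± 0.96 CPM in Control (log2 fold change 2.36 ± 0.42, adjusted p = 0.0181).

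The digestive organ lists had the widest shifts, and their size depended on Low 5. By edgeR's test none of 32 exocrine pancreas genes passed at a median of 1.92, none of 56 liver genes at 2.17, and none of 46 intestine genes at 1.33. At an unadjusted p below 0.05 there were 1, 7 and 4 genes of these lists, by DESeq2 0, 2 and 0 passed, and by voom 1, 9 and 1. Without Low 5 the medians of the exocrine pancreas, liver and intestine lists were 7.35, 4.19 and 4.95, and 1, 12 and 13 of their genes rose. Of all genes, 1958 rose in that fit. With the digestive term, which is built from genes of these organs, the medians were -0.34, 0.23 and -0.16 and none passed. All 54 genes of the cell cycle and DNA replication lay above 0 with a median of 0.48, and none passed edgeR's test or DESeq2, while 3 had an unadjusted p below 0.05 and 25 passed by voom. Their mean level on the log2 CPM scale was 4.36, 4.48, 4.07, 5.17 and 4.38 in High 1 to 5 and 3.72, 3.75, 3.62, 3.49 and 5.03 in Low 1 to 5, so Low 5 was above all but 1 High library. Of 75 neuronal and synaptic genes 63 lay below 0 (median -0.25), and of 34 interferon and antiviral genes 28 did (median -0.38), again with none passing edgeR's test. The neuronal list held 24 genes at an unadjusted p below 0.05, with 5 calls by DESeq2 and 28 by voom, and the interferon list held 10, with 6 and 12 calls. Of 1740 distinct list members tested, 28 rose and 17 fell, against 148 (0.672%) and 229 (1.04%) of all 22012 genes. At least 1 member passed in 21 of the 39 lists and none did in 18 by edgeR's test, among them the proteasome, the cytosolic ribosomal proteins and the respiratory chain. These 3 lists held 9, 4 and 17 genes at an unadjusted p below 0.05, with 1, 1 and 6 calls by DESeq2 and 21, 3 and 18 by voom. Their tested genes numbered 54, 90 and 115, and over all 22012 genes 4814 had an unadjusted p below 0.05.

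**Figure D5:**
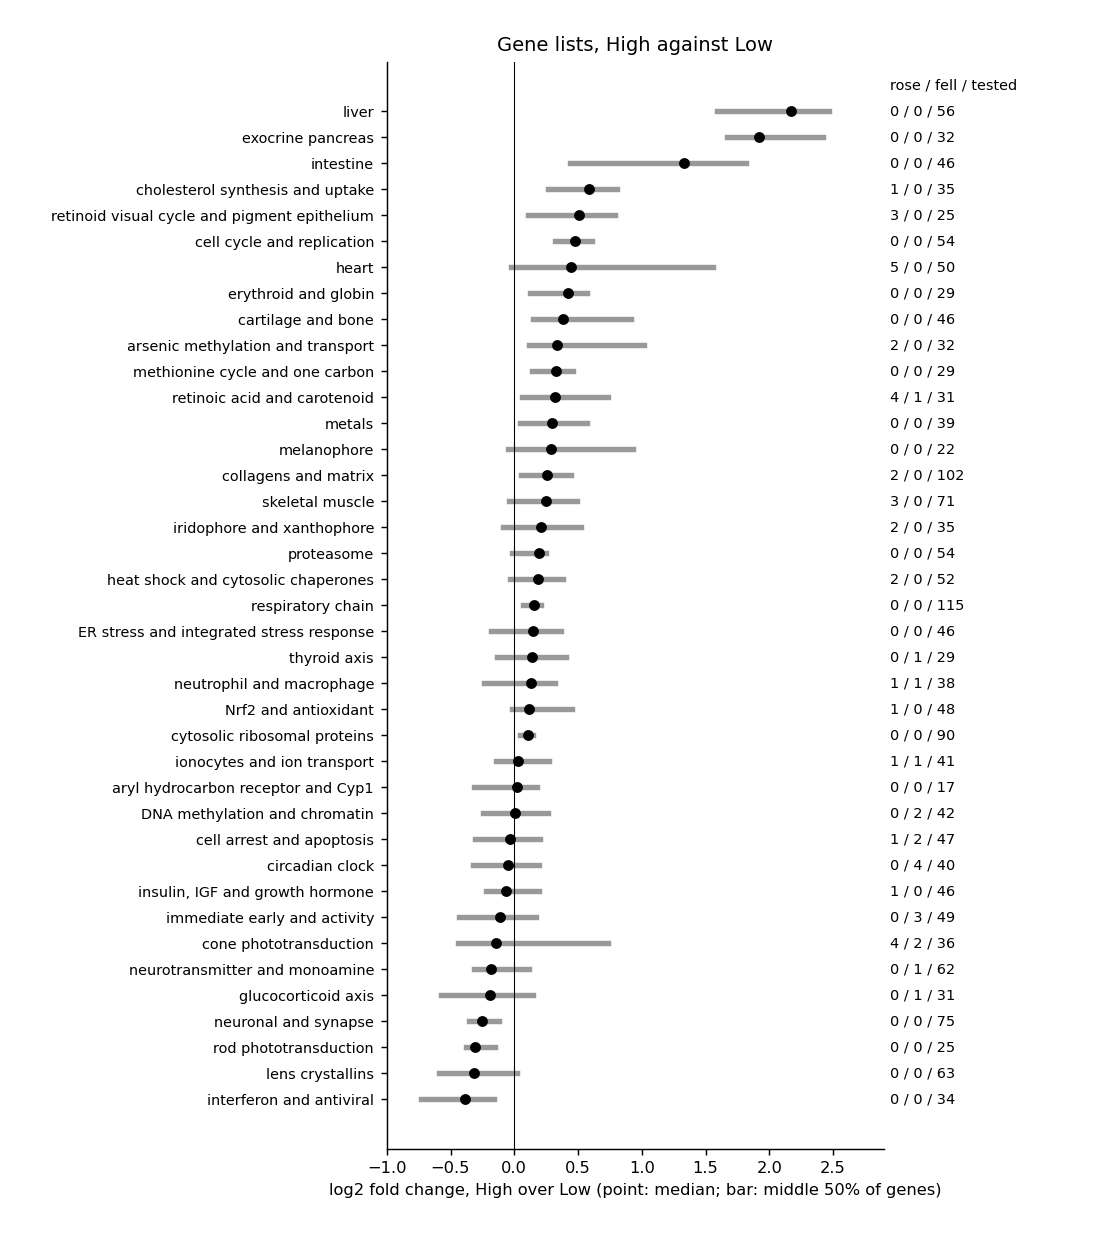
Median (point) and middle 50% (bar) of the log2 fold changes, High over Low, of the genes in each of 39 lists, with the numbers that rose, fell and were tested at the right. Liver, exocrine pancreas and intestine lie far to the right, at medians of 2.17, 1.92 and 1.33 with no gene passing edgeR's test, while the cone, retinoid, heart and clock lists hold 3 to 6 passing genes each at medians between -0.14 and 0.51.

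Against the Control libraries, which both comparisons share, 115 genes (0.522%) passed in High and 0 (0%) in Low by edgeR's quasi-likelihood test, where 2098 genes had an unadjusted p below 0.05 in Low against Control and DESeq2 called 65. slc24a2 had a log2 fold change of 1.09 (adjusted p = 0.00501) in High against Control and of -0.51 (adjusted p = 0.434) in Low against Control. slc1a8b had -3.35 (adjusted p = 0.00166) and -0.32 (adjusted p = 0.807), ARR3 (ENSDARG00000098475) had 1.29 (adjusted p = 0.0218) and -0.61 (adjusted p = 0.434), and BCO2 had 1.48 (adjusted p = 0.0355) and -0.13 (adjusted p = 0.934), High against Control first. For the heart genes the order was different. SLC8A1 had a log2 fold change of 0.34 (adjusted p = 0.550) in High against Control and of -1.07 (adjusted p = 0.415) in Low against Control, and TNNI1 (ENSDARG00000052708) had 0.13 (adjusted p = 0.881) and -1.45 (adjusted p = 0.411). The immediate early gene egr4 had -0.87 (adjusted p = 0.310) and 1.26 (adjusted p = 0.434). Neither contrast of these 3 genes with Control passed, and they were called only where High met Low.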

How the data were processed

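The counts used here are whole numbers of reads for each Ensembl gene, deposited by the authors as 1 table without normalization, per the file headers and the values. The submitters' processing notes list DESeq2, Trimmomatic, FastQC and MultiQC, all lacking a version, beside the zebrafish build GRCz11 and the mouse build mm10. Aligner, counter, annotation and strand setting were not given in the sources used here, so reads of overlapping, antisense or near-identical genes cannot be told apart. The table held 32520 genes, and 15 lines that name no gene were left out. A table of gene names gave symbols to 29201 identifiers, 6136 of which share a symbol, often a capital-letter one given to both zebrafish copies, so identifiers are printed where needed.

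Genes were filtered with filterByExpr, which left 22012, and scaled with TMM factors. edgeR 4.0.16 (R 4.3.3) fitted a robust quasi-likelihood model to all 15 libraries with 1 coefficient per group. The Benjamini-Hochberg adjustment was applied within each comparison, and 0.05 was the threshold. The standard error of a log2 fold change is its size over the root of F. The biological coefficient of variation was 36.6%. A prior count of 2 was added for log2 CPM. The test was first checked on simulated counts. Between libraries of High and between those of Low, chi-square divided by genes was at least 17.2, so these were kept as separate samples. The Control libraries were kept too, without this check.

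The comparison, the 39 lists and the naming rule were chosen with earlier results of these data known. The rule gave the 72 genes used here, and a few others under it are not reported. They are the 12 that rose and the 12 that fell most among passing genes whose mean log2 CPM was 1 or more, with an informative symbol and no overlap, up to 5 passing members of each list, and 18 readouts, of which 17 were found in the table. Alternatives were other scalings and filters, limma 3.58.1 (voom with sample weights), DESeq2 1.42.0, the 10 High and Low libraries alone, the replicate number as a block, each library left out, the mean log2 CPM of 132 digestive organ genes as a term, the 4 pancreas-rich libraries left out, an adjusted p of 0.01 and a test against a 1.5-fold change.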

Additional observations from a re-analysis of the deposited data

Results flagged for a closer look

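Single libraries stood far from the other 4 of their group in 9 of the 144 groups of 5 values checked (6.25%), and 6 of the 9 were in Low 5. Chance alone would give about 1 in 20 for unrelated and unselected genes. Many of these genes were chosen by their values in the same libraries, so that rate does not apply to them. PER1 (ENSDARG00000012499) was at 5.91 CPM in Low 5 and at 10.2 to 10.8 CPM in the other Low libraries. egr4 was at 10.2 CPM in Low 5, against 43.7 to 54.7 CPM. cdkn1a was at 6.68 CPM there, against 2.75 to 3.16 CPM, and CYP1A1 at 55.2 CPM, against 9.80 to 15.2 CPM. CYP26A1 stood at 55.7 CPM in Low 5 and at 23.8 to 28.0 CPM in the others. DNMT1 was at 110 CPM in Low 5 with the others at 48.0 to 65.6 CPM.

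Outside Low 5, rorcb was at 158 CPM in Low 1 and at 110 to 123 CPM in the other Low libraries. DNMT1 was at 147 CPM in High 4, against 56.3 to 76.4 CPM in the other High libraries. PER1 (ENSDARG00000056885) was at 1.52 CPM in High 3, against 0.451 to 0.687 CPM.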

How the results depend on the processing

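The 377 calls (148 higher, 229 lower in High) stayed within 1.5 times under RLE (365) and upper-quartile scaling (374) and a filter of 1 CPM in 5 libraries (379), and no setting moved the median of all genes by 0.1. Without a filter 151 genes were lower. DESeq2 called 1666 genes (725 higher, 941 lower), limma voom with sample weights 4656 (2227 and 2429), the 10 High and Low libraries alone 118 (54 and 64), the digestive term 66 (30 and 36), a threshold of 0.01 13 (10 and 3), a test against 1.5-fold 3 (2 and 1), and the fit without the 4 pancreas-rich libraries 70 (60 and 10). Leaving out 1 library gave 39 to 3778 calls, 19 to 1958 higher and 20 to 1820 lower. High against Control gave 944 calls and Low against Control 65 by DESeq2. Deviations of same-numbered High and Low libraries, over all genes, correlated at 0.23, -0.10, 0.54, -0.40 and 0.48, without a steady sign. High 1 and High 5 were most like the Low library of their own number. These values do not settle whether replicate numbers mark shared parents or handling, so the main fit used no pairing. With the replicate number as a block, 106 genes passed (44 and 62), 20 in High against Control and 1 in Low against Control. The cause of these shifts was not tested, and the fits that left libraries out also had fewer of them. Of the 56 named genes that passed, DESeq2 and the 1 CPM filter kept 56, voom 55, RLE scaling 54, upper-quartile scaling 52, no filter 44, the High and Low libraries alone 29, the block 28, the digestive term 15, the fit without the 4 libraries 13, the 0.01 threshold 6 and the 1.5-fold test 3, and leaving out 1 library kept 13 to 56. None of these 56 changed direction, though they had been chosen by their difference in these same libraries. Of the readouts that did not pass, some changed sign. Their main log2 fold changes were 0.199 for gsto1, -0.009 for HMOX1, 0.035 for NQO1, -0.502 for CYP26A1, -0.396 for opn1lw1 and -0.413 for PER1 (ENSDARG00000056885). With the digestive term the log2 fold change was -0.217 for gsto1, 0.333 for HMOX1 and 0.055 for opn1lw1. Without the 4 libraries it was -0.13 for gsto1, 0.0834 for HMOX1, 0.0589 for CYP26A1, 0.14 for opn1lw1 and 0.0358 for PER1 (ENSDARG00000056885). HMOX1 was at 0.00468 by DESeq2, 0.00466 with RLE scaling, 0.0109 with the 1 CPM filter and 0.0173 with the block, and NQO1 at -0.00325 by voom. Over the fits without 1 library gsto1 ran from -0.0224 to 0.333, HMOX1 from -0.131 to 0.165 and NQO1 from -0.0302 to 0.0987. List medians were recomputed without the filter and with the digestive term, and moved by less than the spread of the list's level between libraries, except those of the retinoid visual cycle without the filter (0.27, against 0.51) and of the aryl hydrocarbon receptor with the digestive term (-0.17, against 0.02). That spread was wide for exocrine pancreas, liver and intestine (SD 3.22, 2.56 and 2.35), so larger moves stayed within it. With the digestive term their medians went from 1.92, 2.17 and 1.33 to -0.34, 0.23 and -0.16.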

Other observations

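Genes outside the lists also passed in all 15 fits that each left out 1 library, and the following were chosen for that after their values were seen. Among those that rose in High relative to Low, skor1a, a corepressor of neurons, averaged 18.2 ± 3.20 CPM in High, 8.84 ± 1.58 CPM in Low and 10.2 CPM in Control (log2 fold change 1.04 ± 0.14, adjusted p = 0.00717). HSD17B12, an enzyme of fatty acid elongation, averaged 36.3 ± 3.93 CPM in High, 21.1 ± 3.08 CPM in Low and 24.7 CPM in Control (adjusted p = 0.00717). DTX4, a ubiquitin ligase of the Deltex family that acts on Notch, averaged 134 ± 16.7 CPM in High, 85.5 ± 7.48 CPM in Low and 94.5 CPM in Control (adjusted p = 0.0138). PDCD7, a protein of the minor spliceosome, and DHRS13, a short-chain dehydrogenase, had log2 fold changes of 0.85 and 0.77 (adjusted p = 0.00717 each). tpm4a, a tropomyosin, averaged 54.6 ± 7.27 CPM in High, 25.6 ± 6.18 CPM in Low and 49.2 CPM in Control (adjusted p = 0.0152), so Control lay near High.

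Among those that fell, vwa10.1, a protein with a von Willebrand factor A domain, averaged 12.3 ± 0.98 CPM in High, 26.0 ± 4.62 CPM in Low and 19.4 CPM in Control (log2 fold change -1.07 ± 0.12, adjusted p = 0.0019). TMEM175, a potassium channel of lysosomes, averaged 0.0558 ± 0.067 CPM in High, 0.819 ± 0.32 CPM in Low and 0.966 CPM in Control (adjusted p = 0.0147), a very low level in every group. il4i1, an amino acid oxidase of immune cells, averaged 2.33 ± 0.45 CPM in High and 4.69 ± 0.36 CPM in Low (adjusted p = 0.0138), and ms4a17a.3, of a family of membrane proteins, 3.87 ± 0.57 CPM in High and 7.70 ± 1.42 CPM in Low (adjusted p = 0.0138). MDM1, a centriole protein, fell to 5.69 ± 0.50 CPM in High, against 9.38 ± 1.22 CPM in Low (adjusted p = 0.0152). herc56.2, of a family of ubiquitin ligases that is large in fish and in which reads of near-identical copies may be split, averaged 0.699 ± 0.13 CPM in High and 2.18 ± 0.66 CPM in Low (adjusted p = 0.0152). Of the 377 genes, 103 carry no informative symbol and are counted without a description.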
